A study of Mus musculus with 9 samples.

Results

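Aquaporins are membrane channels for water and small uncharged solutes, and 8 genes of the family were examined in mouse embryonic stem cells kept in 3 media: Aqp1, Aqp3, Aqp4, Aqp5, Aqp7, Aqp8, Aqp9 and Aqp11. They are 8 of the 24819 gene symbols in the expression table, taken by symbol, and the set was chosen by measured values. Which values these were is not recorded. The FPKM in EPSCM medium of Aqp3, which leads the set, was taken as the value used. The levels in EPSCM are therefore given as descriptions, without a test. The cells were of the E14 line, an established male embryonic stem cell line, with no genetic change named in the labels, and all were grown on gelatin at 37°C. ES medium is high-glucose DMEM with fetal bovine serum and leukemia inhibitory factor (LIF), 2iLIF is serum-free N2B27 with LIF and 2i, the usual name for a MEK and a GSK3 inhibitor, and EPSCM is expanded potential stem cell medium, whose composition the labels do not give. Each medium had 3 libraries of polyadenylated RNA. The labels do not say that these came from separate cultures, so the p-values below measure only the spread between libraries, which may be technical.

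Aquaporins sit in the membrane as tetramers in which every subunit is a pore of its own. Aqp1, Aqp4 and Aqp5 are classical water channels, while the aquaglyceroporins Aqp3, Aqp7 and Aqp9 also pass glycerol, and Aqp3 and Aqp8 are known to pass hydrogen peroxide. Aqp11 is a distant member found mainly inside the cell, at the endoplasmic reticulum. In the early mouse embryo, several aquaporins of the trophectoderm, Aqp3, Aqp8 and Aqp9 among them, are known for water movement into the blastocyst cavity.

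The 250 bases ahead of the transcription start are shown for Aqp3, Aqp8 and Aqp9, because these 3 genes were all higher in 2iLIF than in ES medium. They are from RefSeq, build GRCm38.p6, at chr4:41098184-41098433 (minus strand), chr7:123462044-123462293 (plus strand) and chr9:71163290-71163539 (minus strand), the last being the first of 2 Aqp9 starts in that table. This is another build than the mm9 of the expression values, and no value was read by coordinate. Capitals mark matches to 6 motifs that were searched on both strands.
Aqp3: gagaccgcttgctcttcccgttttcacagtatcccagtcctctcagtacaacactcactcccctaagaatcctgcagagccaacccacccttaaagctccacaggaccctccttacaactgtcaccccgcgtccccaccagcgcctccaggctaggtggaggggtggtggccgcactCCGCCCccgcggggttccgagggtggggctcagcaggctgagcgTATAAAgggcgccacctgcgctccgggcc
Aqp8: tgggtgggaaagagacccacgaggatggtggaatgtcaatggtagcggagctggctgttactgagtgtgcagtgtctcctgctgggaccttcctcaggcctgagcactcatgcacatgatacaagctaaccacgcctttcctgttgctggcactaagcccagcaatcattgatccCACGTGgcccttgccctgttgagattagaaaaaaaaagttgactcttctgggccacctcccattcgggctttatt
Aqp9: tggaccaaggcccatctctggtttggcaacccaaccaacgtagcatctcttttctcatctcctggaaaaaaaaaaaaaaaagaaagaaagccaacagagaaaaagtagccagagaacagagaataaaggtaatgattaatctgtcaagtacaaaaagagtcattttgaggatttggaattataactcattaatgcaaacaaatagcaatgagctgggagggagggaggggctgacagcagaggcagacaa
The Aqp3 window held 1 TATA box, whose first base is 29 bases before the start, and 1 GC box at 73 bases. The Aqp8 window held 1 E-box, 75 bases before the start, and the Aqp9 window none of the 6 motifs. The window of the second Aqp9 start, not printed, held 1 TCF and LEF core, 79 bases before that start. No matches overlapped in these windows, and no motif was present in more than 1 of the 3 windows printed. The shares that follow are over 32851 windows of the same length. The TATA box was searched as TATAAA and is held by 12.4% of them. The GC box was searched as GGGCGG, held by 32.7%. The E-box was searched as CACGTG, held by 6.02%. The core of TCF and LEF factors was searched as CTTTGA, held by 13.8%. The STAT motif was searched as TTCNNNGAA, held by 7.02%. The nuclear receptor core was searched as AGGTCA, held by 14.0%. A match describes the letters of the window and is no evidence of binding.

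Values are FPKM, sequenced fragments per kilobase of transcript scaled to the size of the library, so levels can be compared between genes. The steps between the lowest values put 1 fragment in a transcript of 1 kb at about 0.0336 to 0.0486 FPKM; this is a rough estimate, since transcript lengths came from another annotation. Members under about 0.1 FPKM therefore rest on very few fragments. Each difference is one of means of log2(FPKM + 1), with its SE; the added 1 shrinks the differences of low genes. Calling a gene higher or lower took a difference of at least 1 and an adjusted p under 0.05 in limma. Of the 8 members, 4 reached 1 FPKM in at least 3 of the 9 libraries and were tested among 12330 genes: Aqp3, Aqp5, Aqp8 and Aqp11. Aqp9 missed this by 1 library, and Aqp1, Aqp4 and Aqp7 were far below it. The libraries numbered 16 (ES replicate 1), 18 (2iLIF replicate 1) and 19 (EPSCM replicate 2) stood apart from the others on the third principal component, which held 6.46% of the variance; each medium has 1 of them. The 10 markers of pluripotent stem cells, all tested, summed to 6591 to 7755 FPKM in ES, 6778 to 7989 in 2iLIF and 5317 to 6040 in EPSCM. In EPSCM 3 were lower and none higher against either other medium. Against ES these were Utf1 (-4.19 ± 0.09), Zfp42 (-1.70 ± 0.09) and Pou5f1 (-1.11 ± 0.13), and against 2iLIF Tfcp2l1, Zfp42 and Klf4. In 2iLIF against ES 1 was higher, Tfcp2l1 (1.24 ± 0.11), and 1 lower, Utf1 (-4.20 ± 0.09).

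Aqp3, the water and glycerol channel best known from kidney collecting duct and epidermis, was far lower in ES medium than in both other media. In ES medium its level was 19.8, 18.1 and 18.3 FPKM in replicates 1 to 3. In 2iLIF it was 393, 344 and 338 FPKM, and in EPSCM 381, 455 and 398 FPKM. The lowest 2iLIF or EPSCM library lay far above the highest ES library, while the ranges of 2iLIF and EPSCM overlapped, so the high level was not particular to EPSCM. The overlap rests on library 18: without the libraries that stand apart, both EPSCM libraries lay above both 2iLIF libraries. In each medium the highest Aqp3 value belonged to the library that stands apart. By level, Aqp3 ranked between 4044 and 4351 among the 24819 genes in the ES libraries, between 180 and 193 in 2iLIF and between 158 and 174 in EPSCM.

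**Figure D1:**
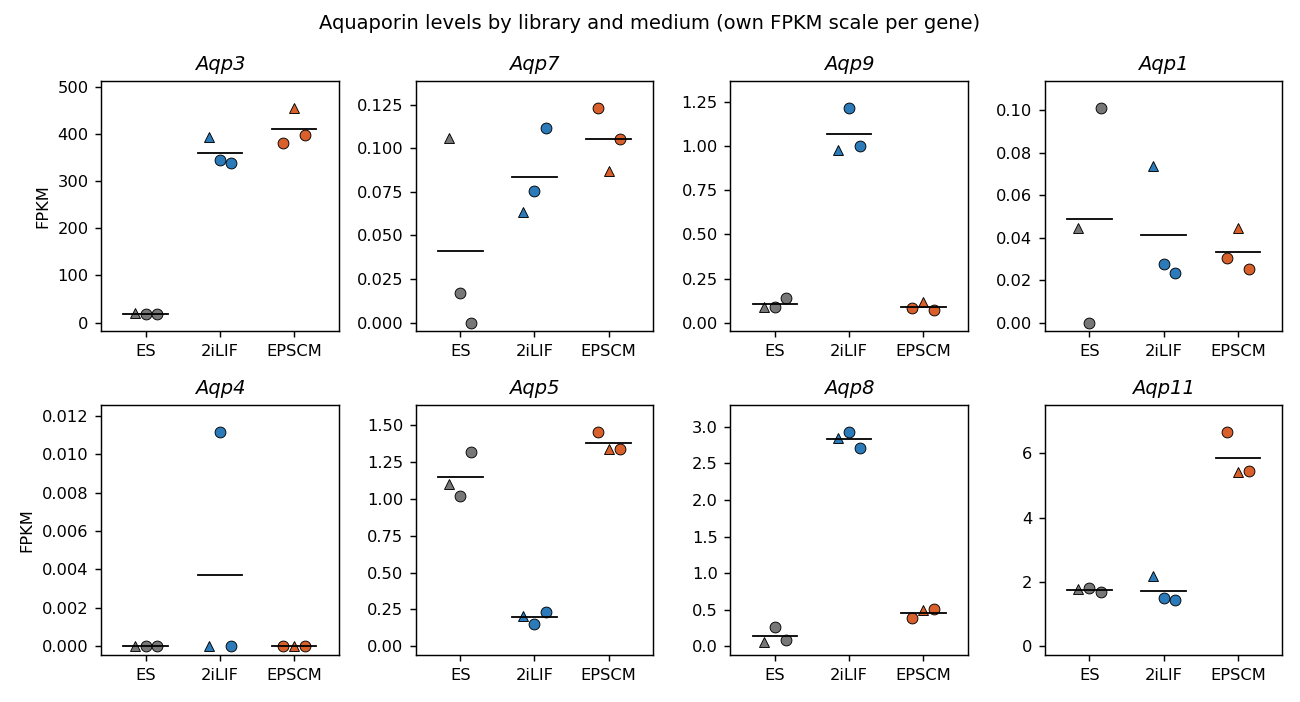
Level of each of the 8 aquaporins in FPKM (vertical axes, each gene on its own scale) in the 3 libraries of ES, 2iLIF and EPSCM medium; bars are means, and triangles mark the libraries numbered 16, 18 and 19. Aqp3 lies near 20 FPKM in ES medium and above 338 FPKM in every library of the other 2 media, Aqp8 and Aqp9 are highest in 2iLIF, Aqp11 is highest in EPSCM, and Aqp1, Aqp4 and Aqp7 stay near 0.

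The comparison of 2iLIF with ES leaves EPSCM out and was tested. It asks how the family differs between cells held by MEK and GSK3 inhibition without serum and cells in serum. If 2iLIF or ES levels also had a part in choosing the set, the p-value of Aqp3 here is not free of that choice. Aqp3 stood at 358 ± 30.0 FPKM in 2iLIF and 18.7 ± 0.943 in ES (SD, n = 3 libraries), a 19.1-fold ratio of means. The difference was 4.18 ± 0.09 (limma adjusted p = 2.57e-09), rank 12 from the top among the 12330 genes. Of all tested genes, 7.62% were called higher and 7.12% lower in this comparison. Aqp8 was called higher too, but it was tested only because its 2iLIF libraries pass the filter, so no count over the tested members is given. The Aqp3 difference was 4.24 within libraries 16 and 18 alone and 4.16 within the other libraries.

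The comparison of EPSCM with ES uses the same 3 ES libraries, so its values are set beside the former only as a description. Aqp3 stood at 411 ± 38.9 FPKM in EPSCM, 21.9-fold above ES by means, a difference of 4.38 ± 0.09. Between EPSCM and 2iLIF the ratio of means was 1.15, and the difference of 0.20 ± 0.09 was small beside either distance from ES. The fetal serum, the inhibitors, the basal medium and the other components change together between these media, and their parts in the Aqp3 level cannot be told apart.

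Aqp3 made up most of the family's message in every library. Summed over the 12 aquaporin genes in the table, its share of FPKM was 79.4% to 80.5% in ES, 98.2% to 98.3% in 2iLIF and 97.1% to 98.0% in EPSCM. The other 11 together summed to 4.51 to 4.79 FPKM in ES, 5.90 to 6.92 in 2iLIF and 9.48 to 11.2 in EPSCM. The sum without Aqp3 was thus highest in EPSCM, with no overlap between media. Not every gene followed that order. Aqp11, the largest part of the EPSCM sum, averaged 5.85 FPKM in EPSCM and 1.71 in 2iLIF. Aqp8 averaged 0.462 FPKM in EPSCM and 2.83 in 2iLIF, and Aqp9 0.0912 and 1.07.

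Among the other aquaglyceroporins, Aqp9, a channel of broad solute range known from liver, was low outside 2iLIF. Its level was 0.981, 1.22 and 1.00 FPKM in the 2iLIF libraries. In ES it was 0.0905, 0.0899 and 0.142 FPKM, and in EPSCM 0.0821, 0.118 and 0.0739 FPKM. Every 2iLIF library lay above the other 6, and ES and EPSCM overlapped. The 2iLIF mean of 1.07 ± 0.131 FPKM was 9.92-fold the ES mean and 11.7-fold the EPSCM mean, though the low groups rest on few fragments. With no filter on low values, over 19256 genes, the difference between 2iLIF and ES was 0.90 ± 0.05 (limma adjusted p = 1.22e-06), short of the limit of 1. That limit was nearly out of reach for a 2iLIF mean of 1.07 FPKM with 1 FPKM added. 

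Aqp7, the glycerol channel of fat cells, lies next to Aqp3 on chromosome 4 and stayed at the edge of detection. It was at 0.106, 0.0171 and 0 FPKM in ES, at 0.0636, 0.0756 and 0.111 in 2iLIF and at 0.123, 0.0868 and 0.105 in EPSCM. The 3 ranges overlapped. The gene adjacent to Aqp3 thus remained far below it.

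Aqp8, a water channel that also conducts ammonia and hydrogen peroxide, was the second aquaporin that was high in 2iLIF. It stood at 2.85, 2.94 and 2.71 FPKM in the 2iLIF libraries. In ES it was at 0.0646, 0.261 and 0.0913 FPKM, and in EPSCM at 0.381, 0.491 and 0.514 FPKM. The 3 media did not overlap, in the order ES, EPSCM, 2iLIF. The 2iLIF mean was 20.4-fold the ES mean, and the difference was 1.75 ± 0.07 (limma adjusted p = 1.06e-07). Aqp8 passed the filter only through its 2iLIF libraries, so it had to differ between media; with no filter the difference had an adjusted p of 3.43e-07. EPSCM lay below 2iLIF by 1.39 ± 0.07 on the log2 scale, and above ES by 0.36 ± 0.07, a description in both cases.

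Markers of the trophectoderm, the outer layer of the blastocyst, differed between media in their own ways. Of 8 tested markers 4 were higher in 2iLIF than in ES and none lower: Krt8, a keratin of simple epithelia, by 2.62 ± 0.10, Cdx2, the transcription factor that specifies the layer, by 1.80 ± 0.05, and Tfap2a by 1.78 ± 0.08, with Eomes, named after its value was seen, at 1.08 ± 0.07 (limma adjusted p at most 1.78e-06). Cdx2 passed the filter only through its 2iLIF libraries, so it had to differ. In EPSCM against ES 2 were higher and none lower, and in EPSCM against 2iLIF 1 was higher and 4 lower. The list medians were 0.98 in 2iLIF against ES, 0.60 in EPSCM against ES and -0.47 in EPSCM against 2iLIF. Over all tested genes, the shares called higher and lower were 7.62% and 7.12%, 11.7% and 7.97%, and 10.1% and 5.91% in that order. Esx1, a homeobox gene of the trophoblast that passed the filter only through EPSCM, averaged 10.51 ± 1.72 FPKM there, 0.599 ± 0.318 in ES and 0.914 ± 0.0806 in 2iLIF, and Eomes averaged 4.40 ± 0.467 in EPSCM and 3.30 ± 0.103 in 2iLIF. The 12 markers summed to 42.8 to 48.8 FPKM in ES, 105 to 119 in 2iLIF and 72.5 to 86.7 in EPSCM. The sum was lowest in ES, as was that of the endothelial and erythroid markers given below, and highest in 2iLIF. The 2iLIF sum was mainly Krt8, at 47.61 ± 3.999 FPKM, with Tead4 at 24.2 ± 1.17 and Tfap2c at 21.7 ± 1.43. Among tested markers, Tfap2c, Krt18, Eomes and Esx1 had their highest mean in EPSCM. The same held for Gata3 (0.613 FPKM), Hand1 (0.866) and, by little, Elf5 (0.0310), which were not tested. Cdx2 itself averaged 0.109 ± 0.0309 FPKM in ES, 2.85 ± 0.118 in 2iLIF and 0.0411 ± 0.0229 in EPSCM. No marker was at 0 throughout a medium, but Elf5, Gata3 and Krt7 stayed under 1 FPKM in all 3. In these bulk samples, more cells of a type and more RNA per cell cannot be told apart, and the part of cells with these markers in the Aqp3, Aqp8 and Aqp9 levels was not tested.

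Of the classical water channels, Aqp5, known from salivary and lacrimal gland and from lung, was lowest in 2iLIF. It stood at 1.10, 1.02 and 1.32 FPKM in ES, at 0.208, 0.151 and 0.232 in 2iLIF, and at 1.46, 1.34 and 1.34 in EPSCM. All 2iLIF libraries lay below the other 6, and Aqp5 passed the filter only through its ES and EPSCM libraries. The ES mean was 5.82-fold the 2iLIF mean, and the difference of 2iLIF from ES was -0.84 ± 0.06 (limma adjusted p = 3.77e-06), short of the limit of 1. The limit was passed with a smaller pseudocount, at -1.24 with 0.5 FPKM and at -2.07 with 0.1 FPKM. EPSCM lay 0.99 ± 0.06 above 2iLIF. It lay 0.15 ± 0.06 above ES, with the lowest EPSCM library just above the highest ES library, but after quantile normalization this turned to -0.08.

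Aqp1, the water channel of red cells and endothelium, was close to 0 in all media. Its values were 0.0446, 0 and 0.101 FPKM in ES, 0.0736, 0.0274 and 0.0236 in 2iLIF and 0.0306, 0.0444 and 0.0254 in EPSCM. Aqp4, the water channel of astrocytes, was listed at 0 in 8 of the 9 libraries and at 0.0112 FPKM in 2iLIF replicate 2. For neither gene was a difference between media detectable at this depth.

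Aqp11, the intracellular member, was highest in EPSCM. Its level was 6.68, 5.41 and 5.45 FPKM in the EPSCM libraries. In ES it was 1.79, 1.81 and 1.68 FPKM, and in 2iLIF 2.18, 1.50 and 1.45 FPKM. EPSCM did not overlap with the others, while the ES libraries lay within the range of 2iLIF. By means, EPSCM stood 3.32-fold above ES and 3.42-fold above 2iLIF, with differences of 1.31 ± 0.11 and 1.34 ± 0.11, given as descriptions. Between 2iLIF and ES the difference was -0.04 ± 0.11 (limma adjusted p = 0.784). In 2iLIF the highest value was that of library 18, so the difference between EPSCM and 2iLIF was 1.01 within libraries 18 and 19 and 1.51 within the others.

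Over all 8 members, every EPSCM library lay above every ES library for 4 and below for none, beside 35.0% and 25.6% of the 19256 genes above 0 in any library. Against 2iLIF, all EPSCM libraries were above for Aqp5 and Aqp11 and below for Aqp8 and Aqp9, beside 34.2% and 25.3%. Between 2iLIF and ES, all 2iLIF libraries were above for Aqp3, Aqp8 and Aqp9 and below for Aqp5, beside 28.2% and 30.1%. The counts with EPSCM describe genes chosen with its levels in view.

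**Figure D2:**
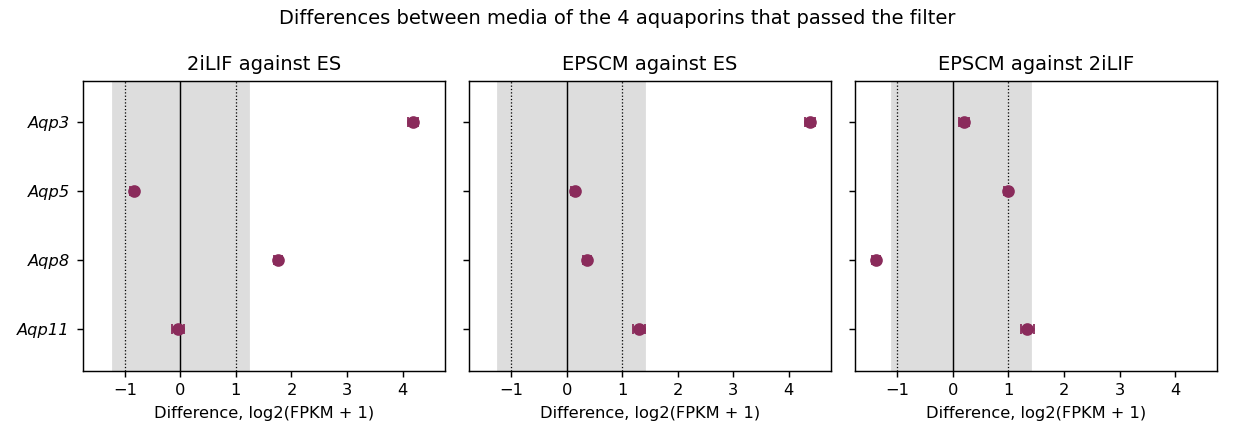
Difference in log2(FPKM + 1) (horizontal axis, point ± SE) of the 4 tested aquaporins in each comparison; grey bands span the 5th to 95th percentile of all 12330 tested genes, and dotted lines mark a difference of 1 in either direction. Aqp3 lies at 4.18 and 4.38 in the comparisons with ES, outside the bands, and at 0.20 between EPSCM and 2iLIF, while Aqp11 departs from 0 only where EPSCM is compared and Aqp8 is lower in EPSCM than in 2iLIF.

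The genes whose profile over the 9 libraries was most like that of Aqp3, among the 1069 others that span at least 2 on the log2 scale, were Vax2 (Pearson r = 0.9992), Hspb8 (0.9989), Creb3l2 (0.9985), Cdkn2a (0.9980) and Plin2 (0.9978). These are a homeobox transcription factor, a small heat shock protein, a membrane-bound transcription factor of the endoplasmic reticulum, a cell cycle inhibitor and a coat protein of lipid droplets. Hspb8 was at 6.30 to 7.03 FPKM in ES, 61.2 to 65.8 in 2iLIF and 73.9 to 80.6 in EPSCM. Plin2 was at 10.4 to 11.6 FPKM in ES, 43.6 to 52.1 in 2iLIF and 44.6 to 54.3 in EPSCM. A value of at least 0.99 was reached by 22 of the 1069 genes. The 9 points are 3 media with 3 libraries each, so the coefficient mainly reads the pattern of a lower ES level and like levels in the other media. It describes the genes without a test.

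**Figure D3:**
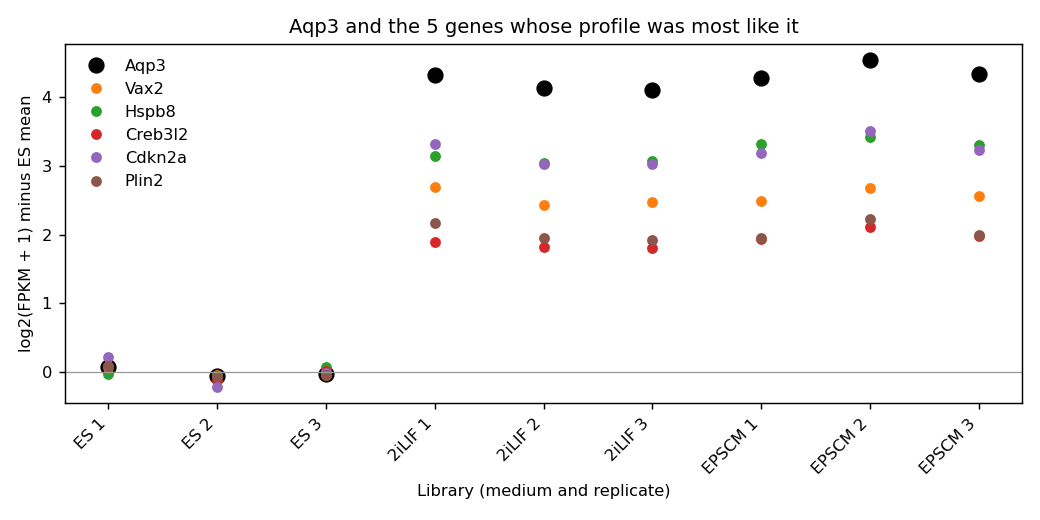
Level of Aqp3 and of the 5 genes with the highest correlation to it, as log2(FPKM + 1) minus the gene's ES mean (vertical axis), in each of the 9 libraries (horizontal axis). All 6 genes lie near 0 in ES medium and form like plateaus in 2iLIF and EPSCM, and Aqp3, from 18.7 FPKM in ES to 411 in EPSCM, has the widest step.

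The genes beside Aqp3 on chromosome 4 did not share its pattern. In the RefSeq order of GRCm38 these are Chmp5, Nfx1 and Aqp7 on one side and Nol6, Ube2r2 and Ubap2 on the other, 5 of them tested. In 2iLIF against ES none was called, with differences from -0.27 to 0.07. In EPSCM against ES, Nol6, a factor of ribosome production, was lower by a difference of -1.16 ± 0.09 (limma adjusted p = 2.68e-06), and the others were not called. By GENCODE, no exon of the 8 members overlaps an exon of another gene.

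Glycerol that enters through such a channel is phosphorylated and built into lipids. Of 20 tested genes of glycerol and glycerolipid metabolism, 1 was higher and 1 lower in 2iLIF than in ES: Gk5, a relative of glycerol kinase, at 1.04 ± 0.16, and Dgat2, which makes triglyceride, at -1.39 ± 0.10 (limma adjusted p = 4.10e-04 and 2.40e-06). The Gk5 call was lost with quantile normalization (0.91) and without ES replicate 1, 2iLIF replicate 2 or 2iLIF replicate 3 (0.92, 0.98 and 0.99). The median of the list was 0.22, beside 0.03 for all tested genes, of which 7.62% were called higher and 7.12% lower. Against ES, EPSCM had 4 of them higher and none lower, with a median of 0.29 beside 0.09, and against 2iLIF 1 higher and none lower, with a median of 0.27, where 10.1% and 5.91% of all tested genes were called. That gene was Dgat2 at 1.04 ± 0.10 (limma adjusted p = 1.43e-05), whose call was lost with quantile normalization (0.85), with scaling to the same median ratio (0.996) and without 2iLIF replicate 2 or EPSCM replicate 2 (0.98 each). Agpat3, an acyltransferase of phospholipid synthesis, rose to 19.9 ± 1.92 FPKM from 7.67 ± 0.973 (1.27 ± 0.11, limma adjusted p = 5.39e-06). Of all tested genes, 11.7% were called higher and 7.97% lower in that comparison. The others higher in EPSCM than in ES were Gpat3, which passed the filter only through EPSCM, at 1.13 ± 0.05, Gk5 at 1.10 ± 0.16 and Gk, glycerol kinase, named after its value was seen, at 1.06 ± 0.13 (limma adjusted p at most 2.35e-04). These 3 calls were lost after quantile normalization, at 0.93, 0.92 and 0.87. The Gk and Gk5 calls were also lost without ES replicate 1, at 0.94 and 0.98, and that of Gk with scaling to the same median ratio, at 0.98.

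Cells answer swelling and shrinkage with ion channels, cotransporters and their kinases. In EPSCM against ES 7 of 20 were higher and 1 lower (median 0.74, beside 0.09 for all tested genes, of which 11.7% were higher and 7.97% lower), in EPSCM against 2iLIF 6 higher and none lower (median 0.51, beside 0.03 for all tested genes), and in 2iLIF against ES 2 higher and none lower (median 0.08, beside 0.03). Shares called higher and lower over all tested genes were 10.1% and 5.91% in EPSCM against 2iLIF, and 7.62% and 7.12% in 2iLIF against ES. Both EPSCM counts of the list hold Stk39 and Wnk2, and the one against 2iLIF also Lrrc8b, which passed the filter only through their EPSCM libraries. Slc12a7, a potassium chloride cotransporter through which swollen cells lose salt, was called higher in each comparison and went from 20.5 ± 1.36 FPKM in ES to 48.7 ± 2.53 in 2iLIF and 118 ± 9.28 in EPSCM. Its differences from ES were 1.21 ± 0.07 in 2iLIF and 2.47 ± 0.07 in EPSCM (limma adjusted p = 1.04e-06 and 2.01e-08). Stk39, a kinase that controls such cotransporters, rose to 2.73 ± 0.0974 FPKM in EPSCM from 0.284 ± 0.0991 in ES (1.54 ± 0.06, limma adjusted p = 9.39e-08). Lrrc8c, a subunit of the volume-regulated anion channel, was 1.62 ± 0.05 higher in EPSCM than in 2iLIF (limma adjusted p = 2.03e-08). The 1 gene that fell was Clns1a, the direct neighbour of Aqp11 and named after its value was seen, with a difference of -1.17 ± 0.07 in EPSCM against ES (limma adjusted p = 5.06e-07).

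The hypertonic response list, which holds Nfat5 targets and osmolyte transporters, had no called gene of 12 in 2iLIF against ES. In EPSCM against ES it had 1 higher and 1 lower, and against 2iLIF 2 higher and 1 lower. Sgk1, a kinase that raises ion transport, fell to 61.7 ± 1.58 FPKM in EPSCM from 162 ± 0.715 in ES (-1.38 ± 0.04, limma adjusted p = 2.55e-08). The chaperone Hspa4l, which passed the filter only through EPSCM, as did Gdpd5 among the genes higher against 2iLIF, rose by 1.20 ± 0.08 against ES and by 1.75 ± 0.08 against 2iLIF (limma adjusted p = 1.72e-06 and 1.90e-07). The medians were -0.07 in both comparisons with ES and 0.22 in EPSCM against 2iLIF. For all tested genes they were 0.03 in 2iLIF against ES, 0.09 in EPSCM against ES and 0.03 in EPSCM against 2iLIF. Shares called higher and lower among all tested genes were 7.62% and 7.12%, 11.7% and 7.97%, and 10.1% and 5.91% in that order.

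Among 20 tested genes that make or remove hydrogen peroxide, which Aqp3 conducts, 1 was higher and 1 lower in 2iLIF than in ES. Cyba, a subunit of NADPH oxidases, rose by 1.20 ± 0.11, and the peroxiredoxin Prdx6 fell by 1.10 on the log2 scale, with an SE of 0.06 (limma adjusted p = 1.64e-05 and 7.55e-07), a call lost at -0.96 with quantile normalization. EPSCM had 3 higher and none lower than ES, led by Cyba at 1.60 ± 0.11 (limma adjusted p = 2.02e-06). In EPSCM against 2iLIF none was higher and 1 lower, Sod2, a superoxide dismutase, at -1.004 ± 0.076 (limma adjusted p = 3.41e-06). Its call was lost with quantile normalization (-0.97), without the libraries that stand apart (-0.99) and without 2iLIF replicate 1, EPSCM replicate 1 or EPSCM replicate 3 (-0.94, -0.97 and -0.98). The medians were 0.10, -0.10 and 0.13 in these 3 comparisons, beside 0.03, 0.09 and 0.03 for all tested genes. Among those genes the shares called higher and lower were 7.62% and 7.12%, 11.7% and 7.97%, and 10.1% and 5.91% in the same order.

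Of 17 tested genes for fluid transport of the blastocyst epithelium, 3 were higher and 1 lower in 2iLIF than in ES. Cdh1, the adhesion molecule E-cadherin, rose by 1.32 ± 0.07, Fxyd4, a regulator of the sodium pump, by 1.13 ± 0.19, and the pump subunit Atp1b1, named after its value was seen, by 1.11 ± 0.05, whereas the tight junction protein Cldn6 had a difference of -2.41 ± 0.08 (limma adjusted p at most 7.81e-04). Fxyd4 passed the filter only with its 2iLIF libraries, and its call was lost without ES replicate 2, at 0.93. In EPSCM against ES only Atp1b2, another pump subunit, was called, at 2.00 ± 0.08, and in EPSCM against 2iLIF 3 were higher, with Atp1b2 at 2.999 ± 0.081, and 1 lower (limma adjusted p = 8.26e-08 and 1.08e-08). Of 11 tested partners of aquaporin trafficking, none was called in 2iLIF against ES; EPSCM had 2 higher against ES and 1 against 2iLIF. Prkaca, the catalytic subunit of protein kinase A, was 1.10 ± 0.10 and 1.16 ± 0.10 higher (limma adjusted p = 9.25e-06 and 7.97e-06). The medians in the order 2iLIF against ES, EPSCM against ES and EPSCM against 2iLIF were -0.06, 0.39 and 0.03 for blastocyst transport and -0.02, 0.28 and 0.52 for the partners. For all tested genes they were 0.03, 0.09 and 0.03 in that order. The shares of all tested genes called higher and lower were 7.62% and 7.12%, 11.7% and 7.97%, and 10.1% and 5.91%.

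**Figure D4:**
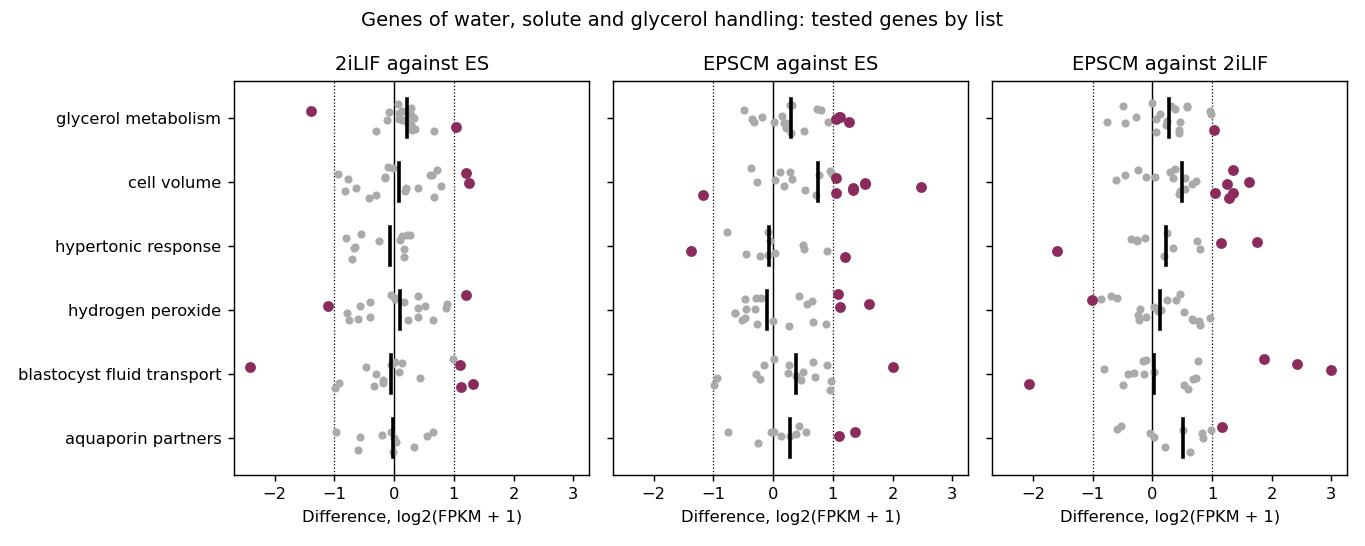
Difference in log2(FPKM + 1) (horizontal axis) of each tested gene in 6 lists around aquaporin function (rows), for the 3 comparisons (panels); purple points were called, grey points were not, black bars are list medians and dotted lines mark a difference of 1. The cell volume list has 7 genes higher and 1 lower in EPSCM against ES, and 2 higher in 2iLIF against ES.

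Markers of other cell types that carry aquaporins were summed in the same way. The epidermal and surface epithelial markers summed to 44.7 to 49.1 FPKM in ES, 9.47 to 10.9 in 2iLIF and 22.7 to 24.6 in EPSCM. Epcam, which holds most of that sum, fell in 2iLIF against ES, at -2.19 ± 0.07 (limma adjusted p = 2.15e-08). The sum therefore mainly reads Epcam. Krt5, Krt14, Krt15, Krt1 and Ivl were listed at 0 in every 2iLIF library. They were near 0 in the other media too, with means of at most 0.148 FPKM in ES and 0.0309 in EPSCM. Among the primitive and visceral endoderm markers 5 of 12 were tested. The 12 summed to 7.63 to 8.36 FPKM in ES, 3.21 to 3.77 in 2iLIF and 11.6 to 13.2 in EPSCM. In 2iLIF against ES 1 of the 5, Sox7, was lower, and Sox7 passed the filter only through ES. EPSCM against ES had Gata6 (1.32 ± 0.06) and Gata4 (1.21 ± 0.10) higher and Sox7 (-1.88 ± 0.05) lower. Against 2iLIF, EPSCM had Gata6 (1.73 ± 0.06) and Amn (1.36 ± 0.09) higher and none lower. Gata6 passed the filter only through EPSCM. The endothelial and erythroid markers, 2 of 12 tested, summed to 23.2 to 24.6 FPKM in ES, 35.1 to 37.6 in 2iLIF and 65.0 to 69.0 in EPSCM, of which Pecam1, which embryonic stem cells also express, averaged 19.04, 32.8 and 62.7 FPKM in that order; Emcn and Hbb-b1 were listed at 0 in all 9 libraries. Neither tested gene of this list was called in 2iLIF against ES, and Pecam1 was called higher in EPSCM against ES, at 1.67 ± 0.06 (limma adjusted p = 3.18e-08). The part of such cells in the Aqp3 level was not tested. The fibroblast markers, 2 of 10 tested, summed to 15.0 to 17.6 FPKM in ES, 3.76 to 4.18 in 2iLIF and 10.96 to 13.8 in EPSCM. Of the tested genes, Thy1 averaged 14.4, 0.410 and 6.02 FPKM and was lower in 2iLIF than in ES (-3.44 ± 0.09, limma adjusted p = 6.58e-09), while Pdgfrb averaged 1.29, 3.28 and 5.74 FPKM, rising in EPSCM against ES (1.56 ± 0.10, limma adjusted p = 8.35e-07).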

How the data were processed

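E14 cells were profiled by RNA sequencing, with 3 libraries for each of ES, 2iLIF and EPSCM, made with a stranded messenger RNA kit per the labels' protocols. The deposited FPKM table has 1 value per gene and library and was made by the authors with STAR and Cuffnorm against mm9, per the submitters' processing notes. The sources used here name no version, annotation, scaling between libraries or strand setting. FPKM values of a library depend on each other, so a scaling can shift them all. They summed to 546636 to 600728 per library, and depth was estimated from the steps between low values.

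Genes that reached 1 FPKM in 3 or more of the 9 libraries (12330 of 24819) were fitted as log2(FPKM + 1) in 1 limma model (limma 3.58.1, R 4.3.3) with a mean per medium and a trend in the variance prior. Adjustment was by Benjamini-Hochberg over all genes tested. The model was tested on simulated data, with changes put only into genes above the levels of Aqp5, Aqp8 and Aqp11, so that test does not cover such low members. Members and gene lists were chosen with earlier results of these data known. Named genes were the aquaporins, the 5 genes most like Aqp3, 3 neighbours on each side of it, and per list and comparison up to 3 called genes that averaged 1 FPKM or more in the higher medium; not all are printed. Lists are described by counts and medians, with no set test. Each count is to be read beside the shares called over all tested genes. Higher and lower, these were 7.62% and 7.12% in 2iLIF against ES, and 11.7% and 7.97% in EPSCM against ES. In EPSCM against 2iLIF they were 10.1% and 5.91%. Replicate numbers follow accession order and pair nothing. Alternatives covered the pseudocount, filter, scaling, covariates, samples in the fit and leaving out libraries. Gene order and promoters are from RefSeq and exon overlaps from GENCODE, all of GRCm38; promoters of 7 of the 8 members were searched.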

Additional observations from a re-analysis of the deposited data

How the results depend on the processing

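Each result was recomputed under 20 alternatives, 9 of which leave out 1 library. The calls of Aqp3 and Aqp8 in 2iLIF against ES held under each alternative that could give a value, with Aqp3 between 4.12 and 4.22 and Aqp8 between 1.71 and 1.83 when libraries were left out. For Aqp8 this says little. It passed the filter only through its 2iLIF libraries, and most alternatives keep that filter. A mean of at least 5 FPKM removes Aqp5, Aqp8 and Aqp11. Aqp5 in 2iLIF against ES passed the limit of 1 with a pseudocount of 0.5 FPKM (-1.24) or 0.1 FPKM (-2.07), and ranged from -0.88 to -0.79 when libraries were left out. Aqp11 in that comparison had no stable direction: it ranged from -0.16 to 0.03 when libraries were left out, with 0.016 and 0.030 without 2iLIF replicate 2 or 3. The difference of Aqp3 between EPSCM and ES ranged from 4.31 to 4.43 when libraries were left out, and that between EPSCM and 2iLIF from 0.12 to 0.26.

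With a mean of at least 5 FPKM, where fewer genes are tested, 832 genes were higher in EPSCM than in ES, 544 higher and 481 lower in EPSCM than in 2iLIF, and 601 higher and 454 lower in 2iLIF than in ES; a pseudocount of 0.1 FPKM gave 1361 lower in the last. Main counts were 1440, 1250, 729, 939 and 878. Quantile normalization moved the median difference of all genes in EPSCM against ES from 0.093 to 0.0068 and the share of higher among called genes from 59.4% to 49.5%, and in EPSCM against 2iLIF that share from 63.2% to 52.8%. Mip in EPSCM against ES changed sign with quantile normalization (-0.22), scaling to the same median ratio (-0.022) and library number of at least 10 as a covariate (-0.026), and ranged from -0.034 to 0.11 when libraries were left out, against 0.028 with all, below 0 without ES replicate 3 or EPSCM replicate 1 (-0.026). No paired analysis was possible because no library number is shared between media. Depth limits Aqp1, Aqp4 and Aqp7, and the low groups of Aqp8 and Aqp9.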

Other observations

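The table holds 4 further aquaporins. Aqp6, an anion-conducting member that lies directly beside Aqp5 on chromosome 15, was at 0.382, 0.344 and 0.531 FPKM in ES, 0.0180, 0.0520 and 0.0604 in 2iLIF and 1.23, 0.987 and 0.985 in EPSCM, with no overlap between media; it reached 1 FPKM in 1 library and was not tested with the others. With no filter on low values its difference was -0.44 ± 0.06 in 2iLIF against ES and 0.54 ± 0.06 in EPSCM against ES (limma adjusted p = 4.34e-04 and 1.02e-04), short of the limit of 1. In 2iLIF against ES the limit was out of reach, since an ES mean of 0.419 FPKM cannot fall by 1 with 1 FPKM added. The ES mean was 9.64-fold the 2iLIF mean, though the 2iLIF values rest on few fragments. Like Aqp5, Aqp6 was lowest in 2iLIF. Aqp2, the vasopressin-regulated channel on the other side of Aqp5, stayed at or under 0.116 FPKM. Mip, the lens member, averaged 0.991 ± 0.199 FPKM in ES, 0.392 ± 0.141 in 2iLIF and 1.03 ± 0.149 in EPSCM (n = 3 libraries each). It passed the filter only through ES and EPSCM libraries. Its difference of -0.52 ± 0.10 in 2iLIF against ES (limma adjusted p = 0.00143) was short of the limit of 1. That limit was out of reach from this ES level with 1 FPKM added, and a pseudocount of 0.1 FPKM passed it (-1.17). An exon of Mip overlaps Gm26847, and no source used here says if the counting used strand. Aqp12 was listed at 0 in all 9 libraries.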
